A study of Mus musculus with 2 samples.

Results

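The genes described here mark the zones of the liver lobule: 7 pericentral genes (Glul, Oat, Slc1a2, Axin2, Lgr5, Rhbg and Tbx3) and 3 periportal genes (Hal, Sds and Gls2). The list was drawn up by zone and not by a threshold on their values, but with earlier results of these data known. Counts of its genes set beside shares over the array are thus descriptions and not tests. Of these 10 genes, 8 were represented by 19 probe sets, out of 18194 named genes and 45101 probe sets on the array. Sds and Gls2 were not analysed here, because no probe set carried either as its only gene symbol in the annotation used. The periportal side therefore rests on Hal alone. Where a gene had several probe sets, the one with the highest mean of both pools gave its value.

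The samples were 1 pool of liver RNA from 3 FLS mice and 1 pool from 3 DS mice, each hybridized to 1 Affymetrix mouse expression array. FLS (fatty liver Shionogi) is an inbred strain that develops fatty liver and steatohepatitis and served as the model of NASH. DS (dd Shionogi), inbred from a separate line of the ddN colony that also gave rise to FLS, was the model of simple steatosis. All mice were 19 weeks of age and fed a standard pellet diet. The intensities are linear, and fold changes are FLS/DS ratios of them. The median signal was 120.3 on the FLS array and 125.2 on the DS array, so probe sets near these levels carry little information. A signal of 500 in at least 1 pool was taken as measured, and a ratio of at least 2 or at most 0.5 as a call. With 1 array per strain there is no replicate check and no p-value. The only error at hand is the scatter between measured probe sets of 1 gene, a pooled SD of 0.22 on the log2 scale over 1424 genes.

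In the adult liver, endothelial cells of the central vein secrete Wnt ligands and R-spondin, which stabilize beta-catenin in the hepatocytes next to the vein. These pericentral hepatocytes switch on Axin2 and Lgr5, both part of the Wnt pathway itself, and Glul, which captures as glutamine the ammonia that has passed the rest of the lobule. Periportal hepatocytes receive blood rich in oxygen and nutrients. They carry out the urea cycle, gluconeogenesis and the breakdown of amino acids such as histidine and serine.

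All 7 pericentral genes had a higher signal in FLS livers, with ratios between 1.33 and 1.78 and none at 2 or above. Hal, the periportal gene, had a ratio of 1.11. Across the array, 42.6% of genes at any signal and 56.4% of those measured had a ratio above 1. A ratio of at least 1.5 was found in 4 of the 7 pericentral genes (Oat, Slc1a2, Rhbg and Tbx3), against 3.02% of genes at any signal and 6.11% of those measured. The 2-fold call was made for 2.29% of measured genes in the higher direction and 1.77% in the lower. In RNA from whole tissue, more cells of a type and more RNA per cell cannot be told apart.

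**Figure D1:**
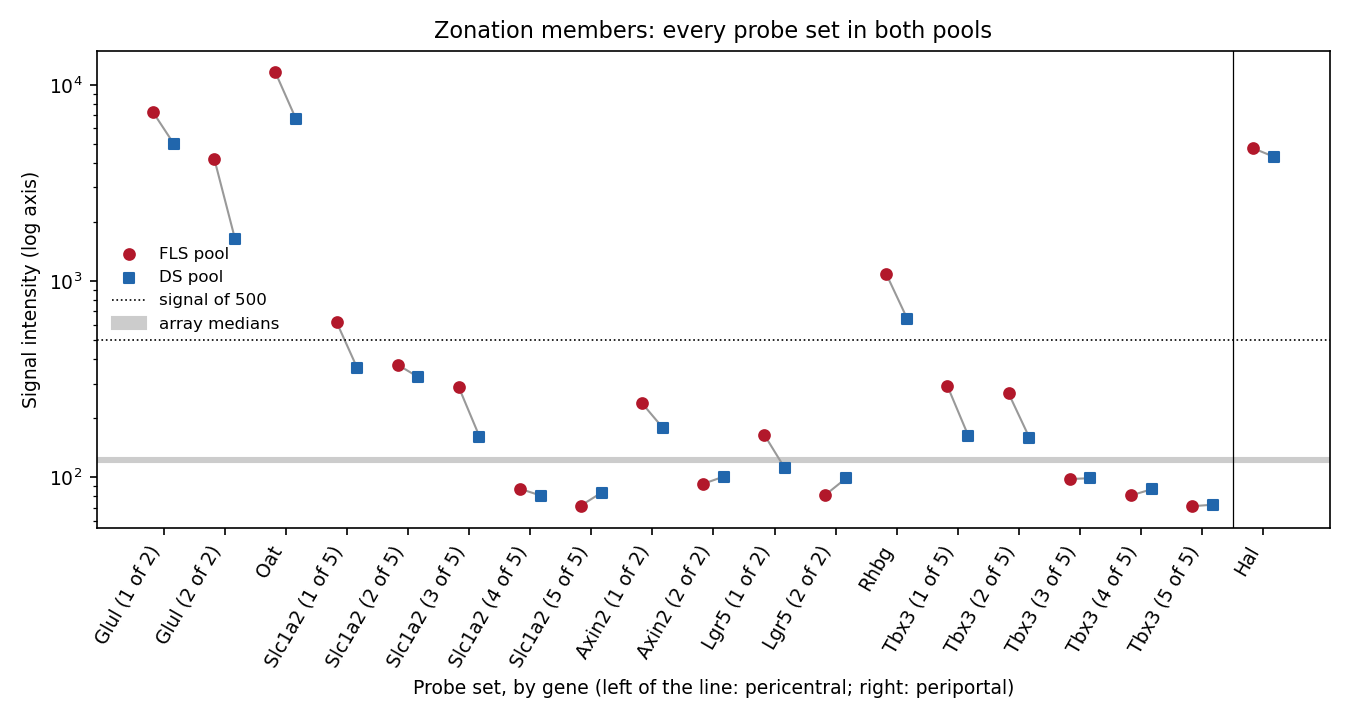
Signal intensity (log axis) of all 19 probe sets of the 8 members for FLS (circles) and DS (squares), ordered by mean signal within a gene, with a dotted line at 500 and a grey band at the array medians. All 11 pericentral probe sets that exceed an array median in at least 1 pool lie higher in the FLS pool, while the 7 at or below both medians have ratios from 0.822 to 1.08.

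Among the pericentral genes of nitrogen handling, Glul encodes glutamine synthetase, which joins ammonia to glutamate. Its probe set with the higher mean measured 7231 in FLS livers against 4988.5 in DS livers, a ratio of 1.45. Its other probe set had 4191 in FLS livers against 1635 in DS livers, a ratio of 2.56. Both were higher in FLS livers, but the log2 ratios of these 2 probe sets differed by 0.82, well over the scatter between probe sets of a gene. The size of the Glul difference is thus not fixed by these data, and on the second probe set it would pass the 2-fold call.

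Oat encodes ornithine aminotransferase, which turns ornithine toward glutamate. It measured 11562 in FLS livers against 6663 in DS livers, a ratio of 1.74, on its single probe set. Among genes with a signal above 10000 in at least 1 pool, 5.56% had a ratio of at least 1.5.

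Rhbg encodes an ammonia transporter of the Rhesus family. It measured 1083 in FLS livers against 644 in DS livers, a ratio of 1.68, again on a single probe set.

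Slc1a2 encodes a glutamate transporter (GLT-1) that in the liver serves uptake by pericentral hepatocytes. Of its 5 probe sets, the strongest measured 619 in FLS livers against 360.2 in DS livers, a ratio of 1.72. It therefore passed the signal limit through the FLS pool alone. A second probe set had 375 in FLS livers against 324 in DS livers (ratio 1.16), and another had 289 in FLS livers against 161 in DS livers (ratio 1.79). All 3 of these were higher in FLS livers, though by unequal amounts. The other 2 lay below the array medians in both pools, with ratios of 1.08 and 0.858.

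Promoter sequences from RefSeq (build GRCm38.p6) were given for 5 of the 10 members. The 250 bases upstream of the start site are shown for the 4 of them that exceeded a signal of 500, because they let the pericentral genes be set beside Hal. They are written 5′ to 3′ in lower case, and capitals mark a TCF/LEF motif, the letters bound by the partners of beta-catenin. The windows are Glul at chr1:153899679-153899928 (plus strand), Oat at chr7:132576399-132576648 (minus strand), Slc1a2 at chr2:102706188-102706437 (plus strand) and Hal at chr10:93488518-93488767 (plus strand).
Glul: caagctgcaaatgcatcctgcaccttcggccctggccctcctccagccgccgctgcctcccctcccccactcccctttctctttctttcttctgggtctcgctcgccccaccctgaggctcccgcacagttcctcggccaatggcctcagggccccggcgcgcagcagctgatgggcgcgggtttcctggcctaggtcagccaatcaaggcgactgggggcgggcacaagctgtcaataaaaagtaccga
Oat: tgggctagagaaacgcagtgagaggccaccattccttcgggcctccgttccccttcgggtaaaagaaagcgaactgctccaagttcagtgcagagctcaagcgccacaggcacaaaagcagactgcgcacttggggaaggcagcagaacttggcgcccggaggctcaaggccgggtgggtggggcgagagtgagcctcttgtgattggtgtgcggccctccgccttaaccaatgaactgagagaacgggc
Slc1a2: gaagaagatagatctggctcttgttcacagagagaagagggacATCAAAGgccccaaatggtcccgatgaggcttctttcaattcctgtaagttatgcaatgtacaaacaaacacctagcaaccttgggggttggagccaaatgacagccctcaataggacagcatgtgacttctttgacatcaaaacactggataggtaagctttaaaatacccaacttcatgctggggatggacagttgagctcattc
Hal: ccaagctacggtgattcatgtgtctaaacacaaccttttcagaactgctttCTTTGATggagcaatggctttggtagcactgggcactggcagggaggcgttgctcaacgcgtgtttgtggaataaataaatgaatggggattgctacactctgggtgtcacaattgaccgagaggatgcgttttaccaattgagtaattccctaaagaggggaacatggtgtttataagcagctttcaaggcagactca
Both strands were searched for CTTTGAT and CTTTGAA, the TCF/LEF forms, and for CAAAGTC, part of the motif of the hepatocyte factor HNF4A. The TCF/LEF letters CTTTG overlap the HNF4A letters CAAAG on the opposite strand. Slc1a2 held ATCAAAG, the reverse complement of CTTTGAT, beginning 207 bases upstream of the start site, and Hal held CTTTGAT beginning 199 bases upstream. Glul, Oat and Axin2, whose window was also searched, held none of the 3 motifs, and the HNF4A letters were in none of the 5 windows. In all 32851 windows of this length, CTTTGAT was present in 3.21%, CTTTGAA in 4.46% and CAAAGTC in 3.84%. Among these genes the letters were thus found in 1 with a ratio of 1.72 and in 1 with a ratio of 1.11. Each window covers 1 start site, and matches are a description of the reference sequence and not of binding.

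The other members, Axin2, Lgr5 and Tbx3, stayed below 500 in both pools. Axin2, a scaffold of the complex that degrades beta-catenin and a feedback target of the pathway, measured 239 in FLS livers against 179 in DS livers, a ratio of 1.33. Its other probe set, below the array medians, had 92.6 in FLS livers against 101 in DS livers (ratio 0.917). Axin2 had the lowest ratio of the 7 pericentral genes.

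Lgr5, a receptor for R-spondins, measured 165 in FLS livers against 111 in DS livers, a ratio of 1.49. The DS signal lay below the array median, so the ratio has no firm size. Its second probe set, with both signals below the medians, had 81.3 in FLS livers against 98.9 in DS livers (ratio 0.822).

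Tbx3, a transcription factor of the T-box family and a target of beta-catenin in liver, measured 291 in FLS livers against 163 in DS livers, a ratio of 1.78. The name of this probe set ends in _x_at, the mark of possible cross-hybridization. A second probe set without that mark had 268 in FLS livers against 159.5 in DS livers, a ratio of 1.68. The remaining 3 of its 5 probe sets lay below the array medians in both pools, with ratios from 0.930 to 0.989. Of genes whose higher signal was between 100 and 500, 40.1% had a ratio above 1 and 2.6% a ratio of at least 1.5.

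Over all 18 pericentral probe sets, 12 had a ratio above 1. The 11 with a signal above the array median in at least 1 pool had ratios from 1.16 to 2.56. Of all named probe sets above a median in this way, 48.0% had a ratio above 1. The 7 with both signals at or below the medians never exceeded 101, and 6 of them had a ratio below 1. Of the 11 above a median, 10 exceeded it in both pools, and 1, of Lgr5, passed through the FLS pool alone, so that its direction was set in part by this limit.

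**Figure D2:**
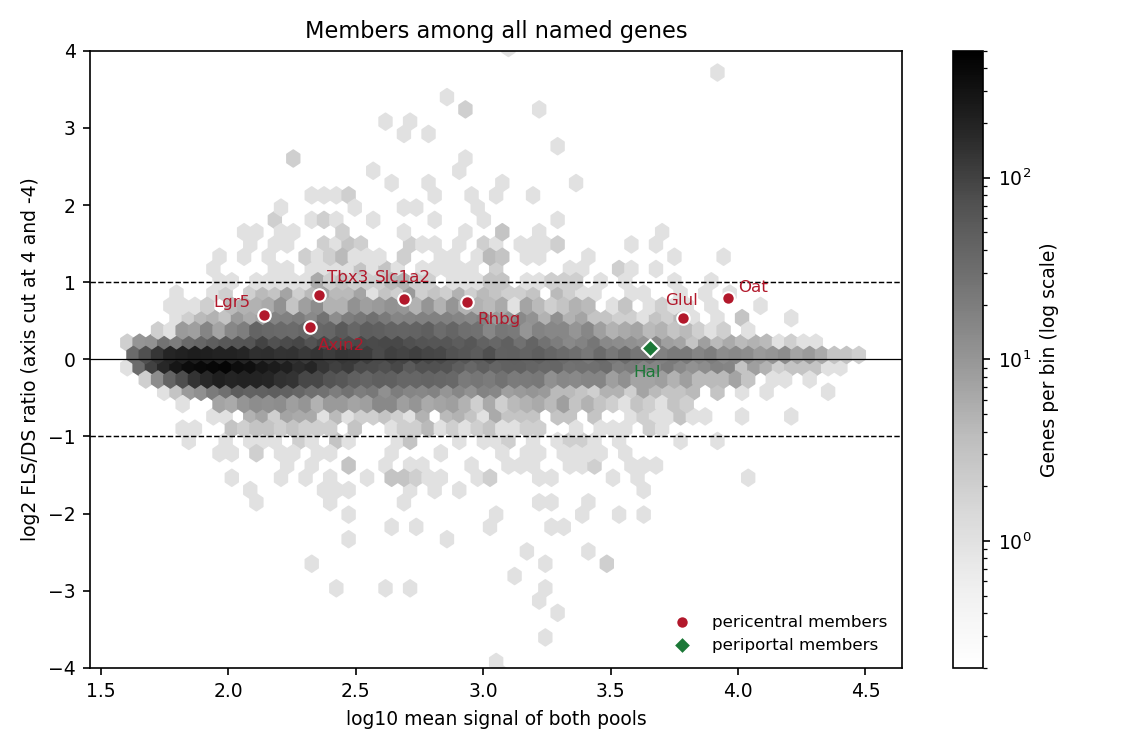
log2 FLS/DS ratio against the log10 mean signal of both pools for 18194 named genes, shaded by the number of genes per bin, with the 7 pericentral members (circles) and Hal (diamond) marked 8 genes outside the plotted range, and dashed lines at 2-fold differences. All pericentral members lie above 0 and below 2-fold, with Oat at 1.74 in the thinly filled region of high signal.

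Hal encodes histidase, which removes ammonia from histidine in the first step of its breakdown. It measured 4756 in FLS livers against 4302 in DS livers, a ratio of 1.11 on its single probe set. This difference of 0.14 on the log2 scale is within the scatter between probe sets of a gene. No direction can thus be given for Hal, whose ratio was smaller than that of Glul on either Glul probe set.

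The median log2 ratio was 0.75 over the 7 pericentral genes and 0.14 for Hal, a difference of 0.60. The median over measured genes was 0.04. The difference was 0.53 after quantile normalization and 0.59 after loess, while centring and division by Actb move all genes alike and cannot alter it. It ranged from 0.52 to 0.62 when each pericentral gene was left out in turn. It was 0.068 when each gene was read as the median over all of its probe sets, a reading that gives equal weight to the probe sets below the array medians. The genes are not replicates of a strain, and the periportal side is 1 gene.

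Wider lists of zonated genes, also chosen with earlier results of these data known, were read in the same way. Among 18 measured genes of a list of other pericentral genes, FLS livers had 3 at least 2-fold higher, none was at least 2-fold lower, and 17 had a ratio above 1. Among 21 measured genes of a list of other periportal genes, 2 were at least 2-fold higher, 1 was at least 2-fold lower, and 8 had a ratio above 1. The median log2 ratio was 0.16 for the pericentral and -0.08 for the periportal list, a difference of 0.24. Over all measured genes, 2.29% were at least 2-fold higher, 1.77% were at least 2-fold lower, and 56.4% had a ratio above 1. Both lists held genes at least 2-fold higher, and with so few calls no difference between the zones can be read from them.

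The 3 pericentral calls were genes of drug and xenobiotic response. Cyp2c37, a cytochrome P450, measured 1921 in FLS livers against 417 in DS livers (ratio 4.61). It passed the signal limit through the FLS pool alone. Its family members are alike in sequence, and whether its probes match others was not tested. Nr1i3, the nuclear receptor CAR, had 2819.5 in FLS livers against 1020.0 in DS livers (ratio 2.76), and Ahr, the aryl hydrocarbon receptor, had 1731.5 in FLS livers against 709 in DS livers (ratio 2.44). The second probe set of Ahr had a ratio of 1.07, with signals of 219.5 in FLS livers against 205 in DS livers.

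The classical pericentral P450 genes Cyp1a2 and Cyp2e1 gave unequal values. Cyp1a2 measured 12903 in FLS livers against 8476 in DS livers, a ratio of 1.52. Cyp2e1 had 21315 in FLS livers against 20203 in DS livers, a ratio of 1.06. Gulo, of vitamin C synthesis, had a ratio of 1.73, the phosphatase gene Lhpp of 1.85 and Lect2, a secreted protein and beta-catenin target, of 1.48. Csad, of taurine synthesis, was the single measured gene of this list with a ratio below 1, at 0.578.

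In the list of other pericentral genes, those with signals above 10000 had the smaller median ratio. Over the 7 genes of this list above 10000 in at least 1 pool, ratios ran from 1.02 to 1.52 with a median log2 ratio of 0.12, while the 11 between 500 and 10000 had a median of 0.57. Oat, a member outside this list, also exceeded 10000 and had a ratio of 1.74. In the periportal list these medians were -0.04 over 8 genes and -0.15 over 13. Without the genes above 10000 the difference between the lists was 0.71. Over all genes, a ratio of at least 1.5 was found in 5.56% of those above 10000 and in 6.13% of those between 500 and 10000.

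**Figure D3:**
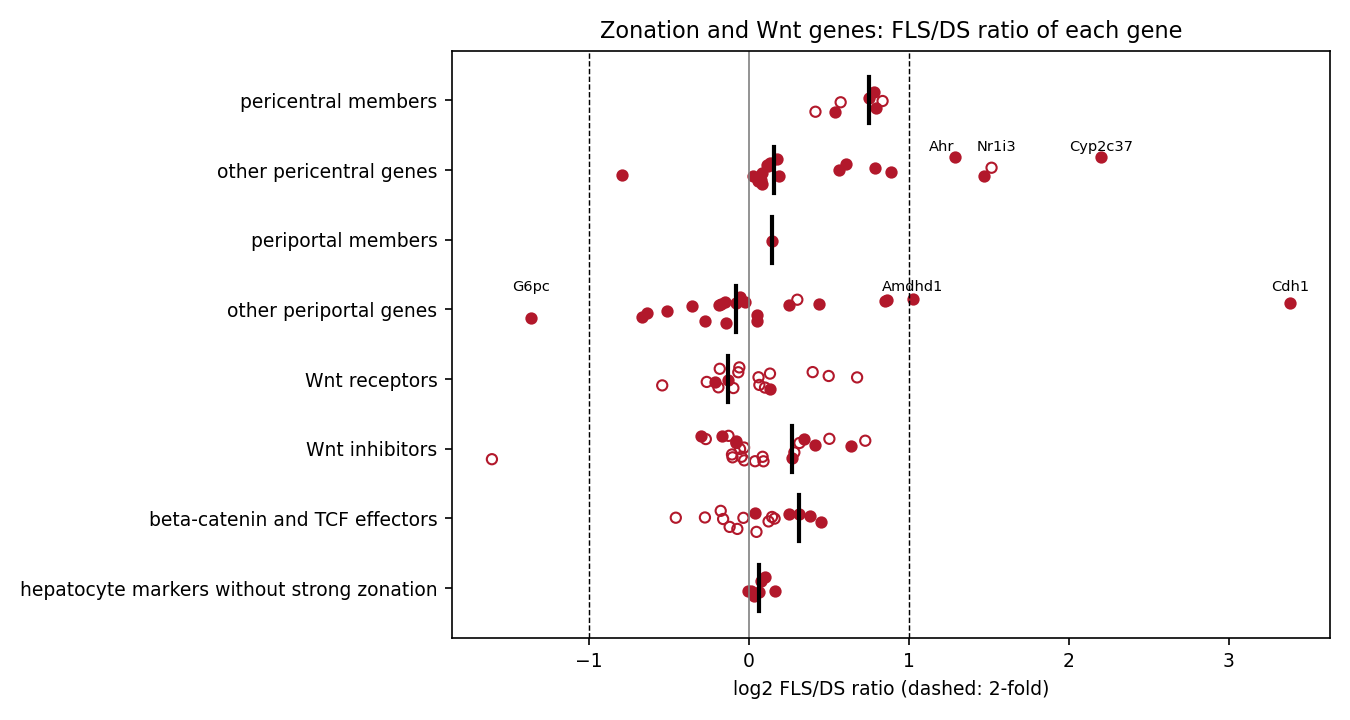
log2 FLS/DS ratio of each gene by list, with measured genes as filled and genes below 500 in both pools as open circles, dashed lines at 2-fold differences, and vertical bars at medians (over all genes on the array for the 2 member lists and over measured genes for the others). The pericentral members cluster between 1.33-fold and 1.78-fold, Hal lies at 1.11, the other lists reach both sides of 0, and measured genes past 2-fold are named.

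On the periportal side the calls pointed both ways. Cdh1, which encodes E-cadherin, measured 1292 in FLS livers against 124 in DS livers, a ratio of 10.4 over a DS signal near the array median. Amdhd1, of histidine breakdown, had 2525.5 in FLS livers against 1241 in DS livers (ratio 2.03), and 1.27 on its other probe set. G6pc, which encodes the catalytic subunit of glucose-6-phosphatase, had 2336 in FLS livers against 5997 in DS livers, a ratio of 0.390. The P450 gene Cyp2f2, often used to mark periportal hepatocytes, had 17326 in FLS livers against 17631 in DS livers, a ratio of 0.983. Pck1, of gluconeogenesis, had a ratio of 0.962 and Alb, the gene of albumin, of 1.03.

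The steps that neighbour the members in nitrogen metabolism did not share one direction. In the breakdown of histidine, Hal (ratio 1.11) is followed by Uroc1 at 0.904, Amdhd1 at 2.03 and Ftcd at 0.828. In the urea cycle, a periportal pathway, Cps1 had a ratio of 1.04, Otc of 0.880, Asl of 0.644 and Arg1 of 0.907. Ass1, read on a probe set near the signal limit (607 in FLS livers against 449 in DS livers), had a ratio of 1.35. In FLS livers, by contrast, Cps1 measured 16147 and Arg1 12608. Whether this probe set reads the main Ass1 transcript was not tested. Nags, which makes the activator of the Cps1 enzyme, had 1.48. None of these urea cycle genes reached a 2-fold difference.

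A list of further genes of ammonia, glutamine and glutamate handling had 16 measured genes. In FLS livers none was at least 2-fold higher and 1 was at least 2-fold lower, against 2.29% and 1.77% of all measured genes. The lower gene was Aldh18a1, of proline and ornithine synthesis from glutamate. It had 240.0 in FLS livers against 762 in DS livers (ratio 0.315) and passed the signal limit through the DS pool alone. Its other 4 probe sets, all below 500, had ratios from 0.901 to 1.04. Slc25a22, a mitochondrial glutamate carrier, had a ratio of 1.58, and Aldh4a1, of proline breakdown, of 1.38. Glud1, the glutamate dehydrogenase gene, had a ratio of 0.924, and the glutamine transporter gene Slc38a3 of 1.14. The median log2 ratio of the list was 0.12, against 0.75 for the 7 pericentral members.

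**Figure D4:**
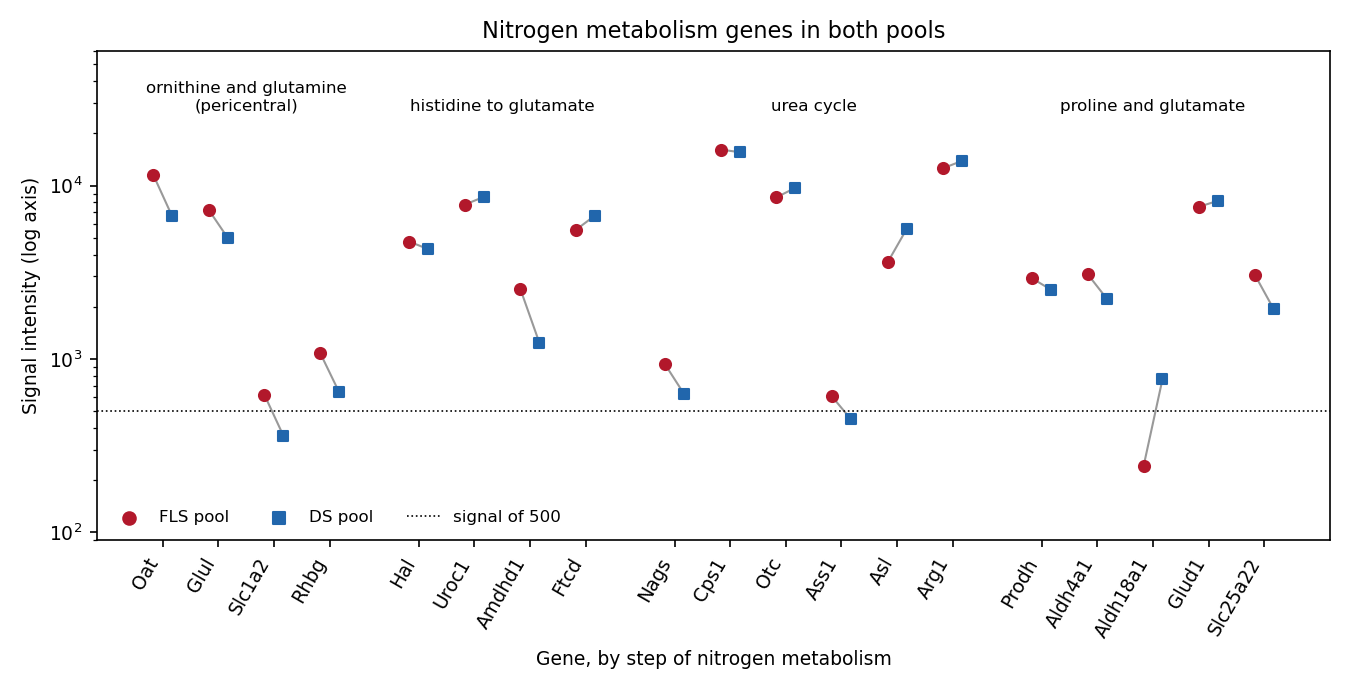
Signal intensity (log axis) of genes of nitrogen metabolism for FLS (circles) and DS (squares), grouped by pathway, with a dotted line at 500. The 4 pericentral members at the left are all higher in the FLS pool, while the histidine, urea cycle and proline genes lie on both sides, from Aldh18a1 at 0.315 to Amdhd1 at 2.03.

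Few genes of the Wnt pathway itself were measured, and none of these 3 receptors, 7 inhibitors and 5 effectors passed the 2-fold call. Such calls were rare on the array, at 2.29% of measured genes in the higher direction and 1.77% in the lower. With so few genes, the lack of a call cannot tell whether the pathway differed between the strains. None of 25 ligand, R-spondin and secretion genes exceeded 500 in either pool, the highest signal being 324. Among the ligands of the central vein, Wnt2 measured 170.2 in FLS livers against 126 in DS livers (ratio 1.35), and Wnt9b had 117 in FLS livers against 131 in DS livers (ratio 0.894). Rspo3, the R-spondin gene of the same cells, had 198 in FLS livers against 155 in DS livers (ratio 1.28), and 0.936 on a weaker probe set. These signals lie close to the array medians, and a difference in the ligands was not detectable at this signal strength.

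Of 17 receptor genes, 3 were measured, with ratios from 0.863 for Lrp6, a Wnt co-receptor, to 1.09. Lgr4, the more widely expressed relative of Lgr5, measured 1703 in FLS livers against 1866 in DS livers, a ratio of 0.913, and its other probe set had a ratio of 1.11. The difference on the first lay within the scatter between probe sets of a gene, so no direction can be given for Lgr4.

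Of 24 inhibitors, 7 were measured, with a median log2 ratio of 0.27. Of these, 4 had a ratio above 1 and 3 below, the lowest being Gsk3b at 0.812. Over all 24 at any signal the median was -0.03, and 11 had a ratio above 1, against 42.6% of all genes. Notum, a secreted enzyme that inactivates Wnt ligands and is itself a target of the pathway, measured 1137 in FLS livers against 729 in DS livers, a ratio of 1.56. Csnk1a1, a kinase that primes beta-catenin for degradation, had a ratio of 1.33. Rnf43, a ubiquitin ligase that removes Wnt receptors, had 201 in FLS livers against 122 in DS livers (ratio 1.66), with a DS signal below the array median. Its relative Znrf3 had a ratio of 1.03, and Nkd1, another feedback inhibitor, of 0.889, with ratios up to 1.18 on weaker probe sets. Of the feedback genes Axin2, Notum, Rnf43, Znrf3 and Nkd1, only Notum and Nkd1 passed the signal limit. Notum was higher in the FLS pool. The Nkd1 difference lay within the scatter between probe sets of a gene, so no direction can be given for Nkd1. Dkk4, another inhibitor of this list, went the other way from Notum and Rnf43. It had 100.4 in FLS livers against 305 in DS livers (ratio 0.329), below 500 in both pools and with an FLS signal below the array median.

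Ctnnb1, which encodes beta-catenin, measured 6125 in FLS livers against 5967 in DS livers, a ratio of 1.03. Weaker probe sets of the gene had ratios of 0.988 and 0.765. The difference on the strongest lay within the scatter between probe sets of a gene, so no direction can be given for Ctnnb1. Its messenger level says nothing of the amount of active protein. All 5 measured effectors, Ctnnb1 among them, had ratios above 1, up to 1.37 for Pygo2 and 1.30 for Dvl1. Of all measured genes, 56.4% had a ratio above 1. At any signal, 9 of the 16 effectors on the array were above 1, against 42.6% of all genes. The TCF gene Tcf7l2 had 429 in FLS livers against 388 in DS livers (ratio 1.11).

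A list of other Wnt target genes shares 6 names with the inhibitors and effectors. Of its 4 measured genes, 1 was at least 2-fold higher, against 2.29% of all measured genes. This was Ccnd1, the cyclin D1 gene, with a signal of 3155 in FLS livers against 321 in DS livers (ratio 9.83). It passed the signal limit through the FLS pool alone, and its probe sets had ratios from 2.77 to 9.83. Sp5, a direct target in many tissues, had 305.5 in FLS livers against 284 in DS livers, a ratio of 1.08. Among targets below 500 in both pools, Myc, a regulator of growth, had 146 in FLS livers against 449 in DS livers (ratio 0.325). Sox4, a transcription factor gene, had 126.0 in FLS livers against 243 in DS livers (ratio 0.518), with ratios up to 1.54 over its 8 probe sets. Id2, a measured target, had a ratio of 1.34. Of the 4 measured targets, 3 had a ratio above 1, against 56.4% of all measured genes. The other, Nkd1, lay within the scatter between probe sets of a gene. At any signal, 9 of the 15 targets had a ratio above 1, against 42.6% of all genes. The lower values of Myc and Sox4 rest on signals below 500.

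Markers of cell types were read beside these values. Hepatocyte genes without strong zonation had ratios from 0.998 to 1.12 over 7 measured genes, all lower than the ratios of the pericentral members. All of these genes but Hnf4a had signals above 10000, which only Oat reached among the members. The sets were thus not matched for signal, and whether signal strength accounts for the difference was not tested. Markers of Kupffer cells and macrophages had ratios from 0.554 to 0.993 over 5 measured genes, and the summed signal of all 6 was 4204 in FLS livers against 5636 in DS livers. Endothelial markers, 4 measured of 8, ran from 0.865 to 1.34, with summed signals of 6840.0 in FLS livers against 6306 in DS livers. Stellate cell markers, 2 measured of 6, summed to 9729 in FLS livers against 7240 in DS livers. Most of this sum came from the measured Dcn (ratio 1.37) and Reln (ratio 1.38). Of the markers below 500, Pdgfrb had a ratio of 2.02, while Lrat, Ngfr and Des had ratios from 0.880 to 0.987. The 4 cholangiocyte markers stayed below 500, among them Krt19 at 88.5 in FLS livers against 99.5 in DS livers and Sox9 at 365 in FLS livers against 140.2 in DS livers. None of 7 lymphocyte and neutrophil markers exceeded 307. The part of these cell types in the zonation values was not tested.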

How the data were processed

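Liver RNA of 3 FLS mice and of 3 DS mice was pooled by strain and measured on 1 array each. The deposited signal intensities are linear; the authors computed them with the MBEI (PM-only) algorithm, which uses the perfect-match probes, and normalized them. The submitters' processing notes name affy, and how 1 array was scaled to the other was not given in the sources used here. Ratios were FLS/DS with no offset.

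The platform annotation named 34958 probe sets by 1 symbol, 932 had several and were not used, and 9211 were unnamed. Symbols were updated through Entrez numbers in a RefSeq table for 34754 probe sets. The members, the 16 gene lists and the alternatives were chosen with earlier results of these data known. Of 217 listed names, 202 were found. Named genes are the members, listed genes past 2-fold or, in lists without any, the 2 of largest ratio, and a fixed set of zonation and Wnt genes. All others, among them Gulo, Lhpp, Lect2, Csad, Asl, Otc, Nags, Uroc1, Ftcd, Aldh4a1, Slc25a22, Glud1, Slc38a3, Sp5, Id2, Krt19, Sox9, Dkk4, Myc, Sox4, Nkd1 and Slc13a3, were picked after their values were seen.

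Alternatives were quantile normalization, centring on the median, loess (fraction 0.4), an Actb reference (division by its ratio of 0.867), 50 added to both signals, the median over probe sets, omission of _x_at and _s_at probe sets, signal limits of 200 and 1000 or 500 in both pools, and ratios of 1.5 and 3. The calculations were tested on simulated data. Software was pandas 2.3.3 with numpy 2.4.6 under Python 3.11.15, statsmodels 0.14.6 for loess and matplotlib 3.10.9 for plots. That there was 1 array per strain limits the precision.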

Additional observations from a re-analysis of the deposited data

How the results depend on the processing

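No paired analysis was possible because each strain had 1 pooled array. Each of the 8 member ratios stayed above 1 under the 4 other scalings, an offset of 50 and the omission of _x_at and _s_at probe sets. Centring and division by Actb raise every ratio, and an offset cannot carry a ratio across 1. These settings were thus bound to leave the members above 1, and of the scalings only quantile normalization and loess could have done otherwise. Leaving out _x_at and _s_at probe sets altered Tbx3 alone, to a ratio of 1.68. Division by Actb shifted every log2 ratio by 0.21 and took Oat to 2.00 and Tbx3 to 2.06. Read as the median over all probe sets, Tbx3 had a ratio of 0.989, on the other side of 1, Glul of 1.93, Slc1a2 of 1.16, Axin2 of 1.11 and Lgr5 of 1.11, and the pericentral minus periportal difference was 0.068, with probe sets below the array medians included. The difference between the wider lists was 0.71 without signals above 10000, a setting chosen after the data were seen.

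The counts turned on the limits. At a ratio of 1.5, 6 other pericentral genes were higher and 1 lower, 4 other periportal genes were higher and 3 lower, and 1 Wnt inhibitor, 2 other Wnt targets and 1 gene of ammonia, glutamine and glutamate handling were higher. At a ratio of 3, the counts were 1 higher in the pericentral and 1 higher and 0 lower in the periportal list. The pericentral count of 3 higher genes was 4 after division by Actb or with a signal limit of 200. It was 2 with the median over probe sets or with 500 required in both pools (which removes Cyp2c37). The periportal count of 2 higher genes was 4 after division by Actb, and 1 with an offset of 50, with the median over probe sets (on which Amdhd1 lies below 2) or with 500 required in both pools (which removes Cdh1). With a signal limit of 200, 1 Wnt inhibitor (Dkk4) and 1 other Wnt target (Myc) were at least 2-fold lower and 1 ammonia, glutamine and glutamate gene (Slc13a3) was at least 2-fold higher. With 500 in both pools, 0 other Wnt targets were higher, and the ammonia, glutamine and glutamate list had 0 lower with that limit, with a limit of 1000 or with the median over probe sets. Signal over background limits what can be said of Axin2, Lgr5, Tbx3 and the Wnt ligands, all below 500 in both pools, and of the many other Wnt pathway genes and cell type markers below it.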
